A study of Mus musculus with 8 samples.

Results

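Genes of glutathione chemistry and the wider antioxidant defence were examined in RNA of mouse brain tissue. The mice were adult males, 2 to 4 months old, and the tissue is labelled brain lysate. The genes were chosen by symbol: cytosolic glutathione transferases, glutathione peroxidases, peroxiredoxins, thioredoxin reductases and superoxide dismutases by family, plus thioredoxins, glutathione synthesis and recycling enzymes, catalase, heme oxygenases, Nqo1, Srxn1 and Hagh by name. That gave 50 genes of the 19938 measured by a probe set with 1 gene symbol. Of the arrays, 4 were labelled TNF-/-, that is from mice lacking tumour necrosis factor (TNF), an inflammatory cytokine, and 4 were labelled TNF+/+ on the C57BL/6 strain. The labels name neither the strain of the TNF-/- mice nor the targeted allele. Each array carried RNA of 1 biological replicate, and values are the log2 signal of the Affymetrix Mouse Gene 1.0 ST array, on which 1 unit is a 2-fold difference. The comparison asks which of these genes differ in the brain between the 2 genotypes.

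Glutathione is a small thiol made from glutamate, cysteine and glycine, first by glutamate-cysteine ligase (catalytic subunit Gclc, modifier Gclm) and then by glutathione synthetase (Gss). Glutathione peroxidases spend it to reduce peroxides, glutathione transferases attach it to reactive molecules, and glutathione reductase (Gsr) restores it with NADPH. Peroxiredoxins work in parallel, drawing on thioredoxin and thioredoxin reductase, while superoxide dismutases and catalase act on superoxide and hydrogen peroxide without thiols. In the brain much of the glutathione system is carried by astrocytes, and many of these genes are targets of the transcription factor NRF2 (gene Nfe2l2).

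Several measurements of the whole set of arrays bear on the comparison. Tnf, the targeted gene, ran opposite to its labels, with signals of 5.67, 5.87, 5.92 and 6.21 under the label TNF-/- and of 4.48, 4.93, 4.24 and 4.47 under TNF+/+ (difference 1.39 ± 0.16, SE; limma, adjusted p = 0.0278). With 1 array left out it passed in 1 of 8 fits, without TNF+/+ array 2, and the difference stayed between 1.29 and 1.52. Probes that lie outside a deletion cannot check it, and their positions were not used here, so each direction below is that of the arrays as labelled. TNF+/+ arrays 3 and 4 stood apart on the first principal component, with scores of 22.05 and 37.22 against -4.29 or lower in the other 6 arrays, and TNF+/+ array 1 had a cerebellar granule cell list mean of 6.82 against 5.08 to 5.27 in the other 7. Markers of brain cells were bright throughout: the mean of 8 neuronal markers lay between 10.91 and 11.06 in every array, and that of 8 astrocyte markers between 9.53 and 9.77. These 2 means do not show that every array held the same brain regions, and the cerebellar list mean of TNF+/+ array 1 differed.

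Not one of the 50 genes passed the test. Limma called 0 of them at an adjusted p under 0.05, over all 35556 probe sets, against 0.0816% of all probe sets and 0.0502% of all genes (0.0351% higher and 0.015% lower). The smallest adjusted p among the 50 was 0.296, and Significance Analysis of Microarrays (SAM), the test named in the study's design, also called 0 of them against 0.149% of all probe sets. With no adjustment, 6 of 50 (12%) had a p under 0.05, against 11.7% of all genes, so the share was near that of the background. By direction, 4 of the 50 had such a p and were higher in the arrays labelled TNF-/-, against 7.37% of all genes. Another 2 of the 50 were lower, against 4.28% of all genes, so these shares too were near the background. Differences, as arrays labelled TNF-/- minus arrays labelled TNF+/+, had a median of -0.02 over the 50 and of -0.01 over all genes, and 29 of the 50 were below 0 (background 52.2%). The median size regardless of sign was 0.07 among the 50 and 0.08 among all genes.

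These arrays bounded the differences of most members. The 95% interval of the difference lay wholly within 0.5 log2 units of 0 for 45 of the 50 genes (90%, against 93.5% of all genes), and within 1 unit for all 50. The 5 genes with an interval that reached beyond 0.5 were Gstm2, Gstp1, Gpx3, Prdx6-ps2 and Sod1. A further limit is signal: 17 of the 50 had a mean below 5.08, the median of all probe sets, among them Gstm2 (4.73) and Gpx3 (4.98), which had the largest differences of the 50, and Gpx2, Gpx5, Gpx6, Gpx7, Nqo1 and Hmox1. Differences of dim probe sets can be understated on arrays, so these intervals say less about the transcript.

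**Figure D1:**
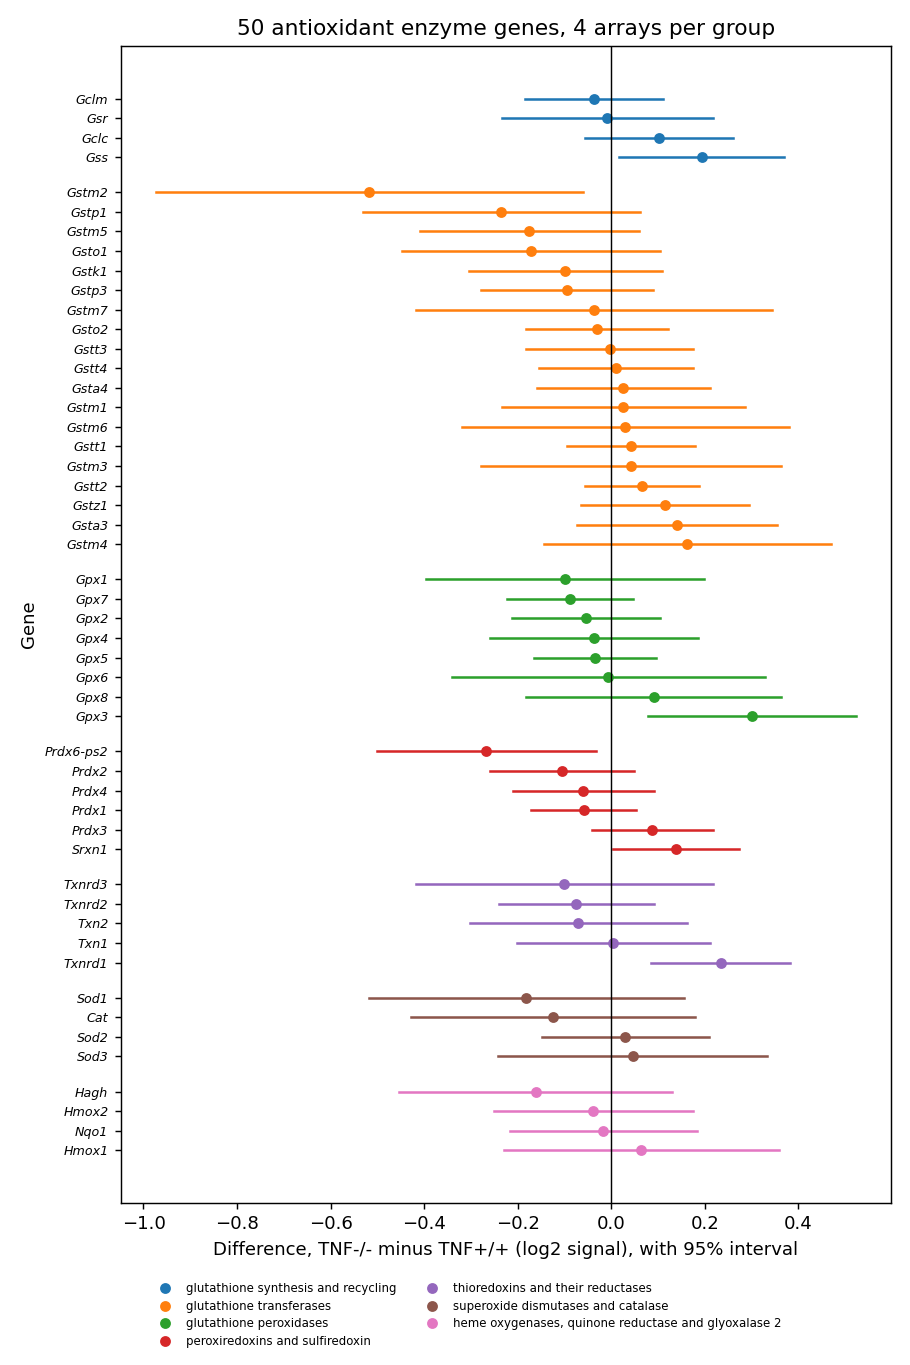
Difference in log2 signal between arrays labelled TNF-/- and TNF+/+ (x axis) for each of the 50 genes (y axis), coloured by function; points are limma estimates and bars 95% intervals, 4 arrays per group. The intervals of 44 genes cross 0, and the widest is that of Gstm2, from -0.97 to -0.06.

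Txnrd1 and Srxn1 are shown first. They belong to the NADPH-driven repair of thiol proteins and are well-known NRF2 targets: Txnrd1 encodes the cytosolic thioredoxin reductase and Srxn1 encodes sulfiredoxin, the enzyme that rescues over-oxidised peroxiredoxins. Their start regions are shown because NRF2 acts through antioxidant response elements near the start of its targets. The sequences are from RefSeq (GRCm38.p6), each running from 250 bases before to 50 after an annotated start, on the plus strand, and capitals mark matches on either strand to TGACNNNGC or TGANTCAGC, which are 2 spellings of the element's core. Txnrd1 has 3 annotated starts in the table, and the only one with a match is at chr10:82858956-82859255; Srxn1 is at chr2:152105274-152105573.
Txnrd1: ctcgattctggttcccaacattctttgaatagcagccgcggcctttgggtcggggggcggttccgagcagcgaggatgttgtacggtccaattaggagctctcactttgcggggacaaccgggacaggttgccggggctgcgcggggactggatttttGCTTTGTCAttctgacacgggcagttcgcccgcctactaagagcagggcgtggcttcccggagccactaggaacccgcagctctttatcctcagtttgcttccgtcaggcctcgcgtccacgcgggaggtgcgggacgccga
Srxn1: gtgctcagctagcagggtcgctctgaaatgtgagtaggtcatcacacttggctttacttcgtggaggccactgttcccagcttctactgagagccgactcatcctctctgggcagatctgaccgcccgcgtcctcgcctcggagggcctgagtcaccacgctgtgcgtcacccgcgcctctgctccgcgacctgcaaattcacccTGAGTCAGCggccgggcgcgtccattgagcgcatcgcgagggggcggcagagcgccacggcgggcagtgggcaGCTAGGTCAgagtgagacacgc
The match in Txnrd1 is to TGACNNNGC on the minus strand at bases 159 to 167. Srxn1 holds TGANTCAGC on the plus strand at bases 206 to 214 and TGACNNNGC on the minus strand at bases 279 to 287. A match is a description of letters and not a bound site.

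Among the 43 members with a start region in that table, 9 genes held TGACNNNGC (20.9%, against 14% of 27025 genes) and 3 held TGANTCAGC (6.98%, against 1.37%). By promoter, the shares were 15.3% of 59 against 12.4% of 32851 for the first, and 5.08% against 1.19% for the second. The spellings overlap, and in 1 member promoter both matched the same bases. Elements outside these start regions were not searched, and the region of Nqo1 held neither spelling. Genes with a match did not share a direction: beside Txnrd1 (0.23) and Srxn1 (0.14), differences were 0.14 for Gsta3 but -0.04 for Gclm, -0.06 for Prdx1, -0.16 for Hagh, -0.18 for Sod1 and Gstm5, -0.04 for Gstm7 and -0.23 for Gstp1, none of which passed.

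Of the 5 thioredoxins and reductases, Txnrd1 alone had groups that did not overlap. Txnrd1 signal was 7.78, 7.77, 7.84 and 7.80 in the arrays labelled TNF-/- and 7.72, 7.48, 7.56 and 7.50 in those labelled TNF+/+. It was also the only such member (1 of 50, or 2%, against 7.66% of all genes, 4.16% higher and 3.5% lower), with TNF+/+ array 1 only 0.05 below the lowest array labelled TNF-/-. The difference was 0.23 ± 0.06 (SE), or 1.18-fold, with a 95% interval from 0.09 to 0.38. It did not pass over all probe sets (limma, adjusted p = 0.296), and the exact two-sided permutation p of 0.0286 is the smallest that 4 against 4 arrays can give. The mitochondrial reductase Txnrd2 differed by -0.07 ± 0.07 and Txnrd3, a reductase with a glutaredoxin domain best known from testis, by -0.10 ± 0.14. Their substrates differed little between groups: cytosolic Txn1 by 0.00 ± 0.09 and mitochondrial Txn2 by -0.07 ± 0.10. Txn1 signal was 10.85, 10.94, 11.05 and 10.97 against 10.74, 10.88, 11.09 and 11.09, so the groups overlapped.

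Peroxiredoxins are the abundant peroxidases that thioredoxin serves, and none of their probe sets passed. Prdx2, which is prominent in neurons and red blood cells, had signals of 10.95, 10.84, 10.97 and 10.79 in the arrays labelled TNF-/- and 11.10, 10.89, 10.95 and 11.02 in the others, a difference of -0.10 ± 0.07 (SE). Mitochondrial Prdx3 was at 0.09 ± 0.06 and Prdx4 of the endoplasmic reticulum at -0.06 ± 0.07. Prdx1 has 2 probe sets: the brighter differed by -0.06 ± 0.05, while the dimmer was lower in every array labelled TNF-/- (8.52, 8.53, 8.56 and 8.60, against 8.84, 8.83, 8.64 and 8.76) and differed by -0.21 ± 0.06 (limma, adjusted p = 0.304). The 2 probe sets of Prdx2 both stood at -0.10.

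Srxn1 signal was 8.41, 8.46, 8.47 and 8.52 in the arrays labelled TNF-/- and 8.25, 8.42, 8.37 and 8.27 in those labelled TNF+/+. Only TNF+/+ array 2 lay above the lowest array labelled TNF-/-. The difference was 0.14 ± 0.06 (SE), or 1.10-fold (limma, adjusted p = 0.453). The family rule also takes in Prdx6-ps2, an annotated pseudogene on chromosome 4, at 5.13, 5.25, 5.10 and 4.79 against 5.31, 5.41, 5.42 and 5.20, which differed by -0.27 ± 0.10 (limma, adjusted p = 0.414). Without TNF-/- array 4 its difference was -0.17, and its unadjusted limma p was no longer under 0.05. The same loss followed when TNF-/- array 3, TNF+/+ array 2 or TNF+/+ array 3 alone was left out. A processed copy shares sequence with its parent gene Prdx6, which has no probe set of its own here, so which transcript this signal measures is uncertain.

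**Figure D2:**
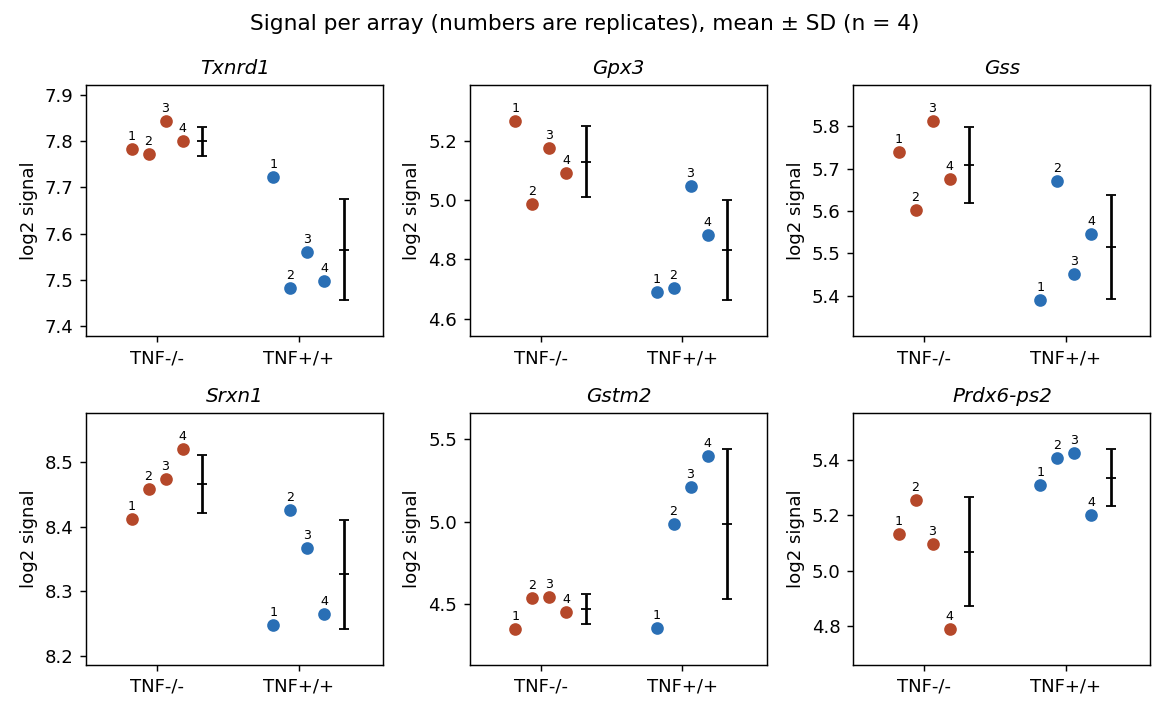
Log2 signal (y axis) per array in the 2 labelled groups (x axis) for the 6 genes with an unadjusted limma p under 0.05; points are arrays with their replicate number, and black bars are mean ± SD, n = 4. The groups are apart for Txnrd1 alone, and for Gstm2 TNF+/+ array 1 (4.35) lies among the arrays labelled TNF-/-.

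Of the enzymes that make and recycle glutathione, Gss had the largest difference. Its signal was 5.74, 5.60, 5.81 and 5.68 in the arrays labelled TNF-/- and 5.39, 5.67, 5.45 and 5.55 in those labelled TNF+/+, with TNF+/+ array 2 inside the other group's range. The difference was 0.19 ± 0.08 (SE), or 1.14-fold (limma, adjusted p = 0.431). Neither subunit of the rate-limiting ligase passed: Gclc differed by 0.10 ± 0.07 and Gclm by -0.04 ± 0.06. Gsr, which regenerates reduced glutathione, differed by -0.01 ± 0.10, with a 95% interval from -0.23 to 0.22.

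Among glutathione peroxidases, Gpx4 reduces lipid peroxides in membranes, Gpx1 serves cytosol and mitochondria, and Gpx3 is secreted. Gpx3 signal was 5.27, 4.99, 5.18 and 5.09 in the arrays labelled TNF-/- and 4.69, 4.70, 5.05 and 4.88 in those labelled TNF+/+, with the groups meeting at TNF+/+ array 3. The difference of 0.30 ± 0.10 (SE), or 1.23-fold, did not pass (limma, adjusted p = 0.358). It was 0.43 without TNF+/+ arrays 3 and 4, because arrays 1 and 2 were the lowest of that group. Those same arrays had the lowest means of 6 choroid plexus markers (6.98 and 7.12, against 7.14 to 7.33 in the other 6 arrays) and of 6 meningeal fibroblast markers (6.24 and 6.23, against 6.36 to 6.61). By label, 5 of 6 choroid plexus and 6 of 6 meningeal markers were higher under TNF-/-. The part of these cells in the Gpx3 value was not tested. In whole-tissue RNA, fewer cells of a type and less RNA per cell cannot be told apart.

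Gpx4 signal was 9.71, 9.55, 9.67 and 9.66 against 9.63, 9.51, 9.63 and 9.96. The difference was -0.04 ± 0.10 (SE), and its second probe set was at -0.05 ± 0.09. Gpx1 was at 7.39, 7.33, 7.47 and 7.44 in the arrays labelled TNF-/- and at 7.32, 7.29, 7.51 and 7.91 in the others, so a single array, TNF+/+ array 4, lay well above the remaining 7. Its difference of -0.10 ± 0.13 turned to 0.04 without that array. Gpx2, Gpx5, Gpx6 and Gpx7 had means from 3.51 to 4.26 in the 2 groups and differed by -0.09 to -0.01, and Gpx8 of the endoplasmic reticulum differed by 0.09 ± 0.12.

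Glutathione transferases made up 19 of the 50 genes. Under the label TNF-/-, 10 had a higher mean and 9 a lower one; the median difference was 0.01, and 1 gene had an unadjusted p under 0.05. That gene, Gstm2, had the largest difference of all members. Its signal was 4.35, 4.54, 4.54 and 4.45 in the arrays labelled TNF-/- and 4.35, 4.98, 5.21 and 5.40 in those labelled TNF+/+. The arrays labelled TNF-/- were close together, and TNF+/+ array 1 was level with the lowest of them, whereas the other TNF+/+ arrays were all higher. The difference was -0.52 ± 0.20 (SE), or 1.43-fold lower (limma, adjusted p = 0.414). It was -0.73 without TNF+/+ array 1 and -0.20 without TNF+/+ arrays 3 and 4.

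Gstm2 is 1 of 7 mu class genes that lie close together on chromosome 3, in the order Gstm5, Gstm7, Gstm6, Gstm3, Gstm2, Gstm1 and Gstm4 in RefSeq, with 3 other annotated genes among them. Its neighbours had smaller differences: Gstm3 differed by 0.04 ± 0.14 (SE), Gstm1, the main mu class transferase of astrocytes, by 0.03 ± 0.11 and Gstm4 by 0.16 ± 0.13. The dimmer second probe set of Gstm3 was at -0.10 ± 0.12, opposite in sign to the brighter. Gstm5, the class's brightest probe set, was at 9.85, 9.88, 9.69 and 9.70 against 9.69, 10.00, 9.96 and 10.17, with TNF+/+ array 1 level with the lowest array of the other group, as for Gstm2; it differed by -0.18 ± 0.10 (limma, adjusted p = 0.569), or -0.10 without TNF+/+ array 4. In TNF+/+ array 1 the signal of each of the 7 mu class genes was the lowest of the 8 arrays or the next to lowest. These paralogs are similar in sequence, so probe sets may share signal.

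In the other classes the 12 measured genes split evenly, 6 higher and 6 lower. Gstp1, the pi class enzyme prominent in oligodendrocytes and astrocytes, was at 10.23, 10.18, 10.44 and 10.19 against 10.25, 10.43, 10.43 and 10.87. It differed by -0.23 ± 0.13 (SE; limma, adjusted p = 0.551), and by -0.11 without TNF+/+ array 4, the highest of the 8. Mature oligodendrocyte markers were lower as well: 7 of 7 were below 0, with a median of -0.32, and list means were 9.12 to 9.23 under the label TNF-/- and 9.26 to 9.56 under TNF+/+, highest in arrays 3 and 4; their part in the Gstp1 value was not tested. Gsto1, an omega class enzyme that also reduces dehydroascorbate, was at 7.64, 7.28, 7.71 and 7.71 against 7.51, 7.84, 7.78 and 7.89, a difference of -0.17 ± 0.12, or -0.07 without TNF-/- array 2, the lowest of the 8. Gsta4, which conjugates the lipid peroxidation product hydroxynonenal, was at 8.91, 8.98, 8.94 and 9.13 against 8.90, 9.05, 8.81 and 9.09, a difference of 0.03 ± 0.08. Theta class genes lay between -0.00 and 0.07, and the zeta class gene Gstz1 at 0.12 ± 0.08. Of the remaining transferases, Gstk1 differed by -0.10 ± 0.09, Gstp3 by -0.09 ± 0.08 and Gsto2 by -0.03 ± 0.07. The mu class genes Gstm6 and Gstm7 differed by 0.03 ± 0.15 and -0.04 ± 0.17.

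Superoxide dismutases and catalase showed no member at an unadjusted p under 0.05. Sod1, the cytosolic copper and zinc enzyme, was at 9.66, 9.65, 9.72 and 9.57 in the arrays labelled TNF-/- and at 9.64, 9.48, 10.03 and 10.18 in the others. TNF+/+ arrays 3 and 4 were above all 6 other arrays. The difference of -0.18 ± 0.15 (SE) became 0.09 without them. Mitochondrial Sod2, a classical TNF-induced gene in cultured cells, was at 10.23, 10.34, 10.41 and 10.39 against 10.23, 10.26, 10.25 and 10.51. It differed by 0.03 ± 0.08, with a 95% interval from -0.15 to 0.21. Extracellular Sod3 differed by 0.05 ± 0.13. Catalase (Cat) was at 7.34, 7.08, 7.47 and 7.50 against 7.29, 7.26, 7.71 and 7.63, at -0.12 ± 0.13 with all arrays and 0.07 without TNF+/+ arrays 3 and 4.

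None of the heme oxygenases, Nqo1 or Hagh had an unadjusted p under 0.05. Hmox1, the inducible heme oxygenase, differed by 0.06 ± 0.13 (SE), constitutive Hmox2 by -0.04 ± 0.09, and Nqo1, a quinone reductase often read as an NRF2 reporter, by -0.02 ± 0.09. Hmox1 and Nqo1 were dim (means of 4.73 to 4.79 and 4.39 to 4.41). Hagh, glyoxalase 2, which completes the glutathione-dependent disposal of methylglyoxal, was at 9.67, 9.72, 9.85 and 9.84 against 9.73, 9.72, 9.99 and 10.30, a difference of -0.16 ± 0.13, or 0.05 without TNF+/+ arrays 3 and 4. Its partner Glo1, which carries out the first step and also lies on chromosome 17, rose from 8.59, 8.84, 8.88 and 9.16 in the arrays labelled TNF+/+ to 9.83, 9.86, 9.97 and 10.02 in those labelled TNF-/- (difference 1.05 ± 0.11; limma, adjusted p = 0.0196). Hagh did not pass (limma, adjusted p = 0.666), and the gap between the differences of the 2 genes was not tested. Tnf lies on chromosome 17 too, and the labels do not name the strain of the TNF-/- mice. For Glo1, TNF genotype and strain background therefore cannot be told apart.

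**Figure D3:**
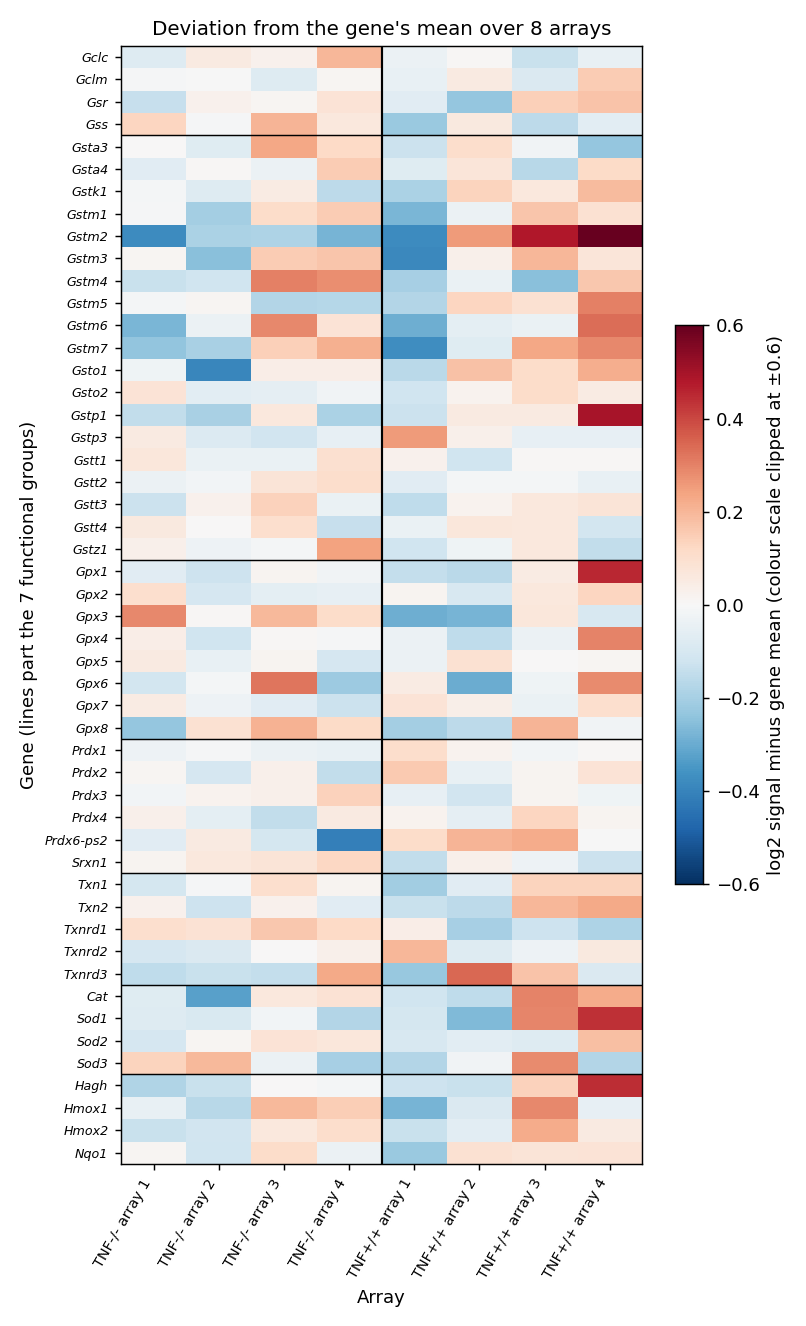
Deviation of each gene (rows) in each array (columns) from the gene's mean over the 8 arrays, in log2 units, with the 7 functional groups parted by lines. TNF+/+ array 1 is mostly blue (median deviation of the 50 genes -0.12), and TNF+/+ arrays 3 and 4 are mostly red (0.06 and 0.08).

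The median deviation of the 50 genes from each gene's own mean was -0.12, -0.03, 0.06 and 0.08 in the TNF+/+ arrays, and -0.02, -0.05, 0.03 and 0.04 in the arrays labelled TNF-/-. Not every gene followed the median: 33 of 50 were above their own mean in TNF+/+ array 3, 34 in TNF+/+ array 4 and 11 in TNF+/+ array 1, and Txnrd1, Txnrd2, Prdx1, Prdx2, Gstp3 and Gstt1 had their highest TNF+/+ signal in array 1. In TNF-/- array 3, too, 34 of 50 were above their own mean. Of the 50 genes, 27 (54%) had their highest signal in TNF+/+ array 3 or 4, where all genes had 32.5%, and 24 (48%) had their lowest in TNF+/+ array 1 or 2, where all genes had 27.3%. TNF+/+ array 4 alone was highest for 17 genes (34%, against 17.2% of all genes). After quantile normalization the share was also 34%, against 19.5% of all genes. Without TNF+/+ arrays 3 and 4, which leaves only arrays 1 and 2 in that group, the median of the 50 was 0.07 in place of -0.02. That of all genes was 0.01, and 14 genes went from below to above 0 and 1 from above to below. With 1 array left out, the median of the 50 ran from -0.057 (without TNF+/+ array 1) to 0.015 (without TNF+/+ array 4). Nuclear genes of the respiratory chain were high in the same arrays: the mean of 23 was 9.77 and 9.93 in TNF+/+ arrays 3 and 4 and 9.62 to 9.70 in the other 6, and 20 of 23 were lower in the arrays labelled TNF-/- (background 52.2%), but 13 of 23 without TNF+/+ arrays 3 and 4. TNF+/+ arrays 3 and 4 both lay above the other 6 arrays for 9 of the 50 genes (18%, against 9.1% of all genes): Gsr, Gstm2, Gstm7, Gpx1, Txn1, Txn2, Cat, Sod1 and Hagh. These include enzymes of cytosol, mitochondria and peroxisomes. No cause of the arrays' difference was tested.

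**Figure D4:**
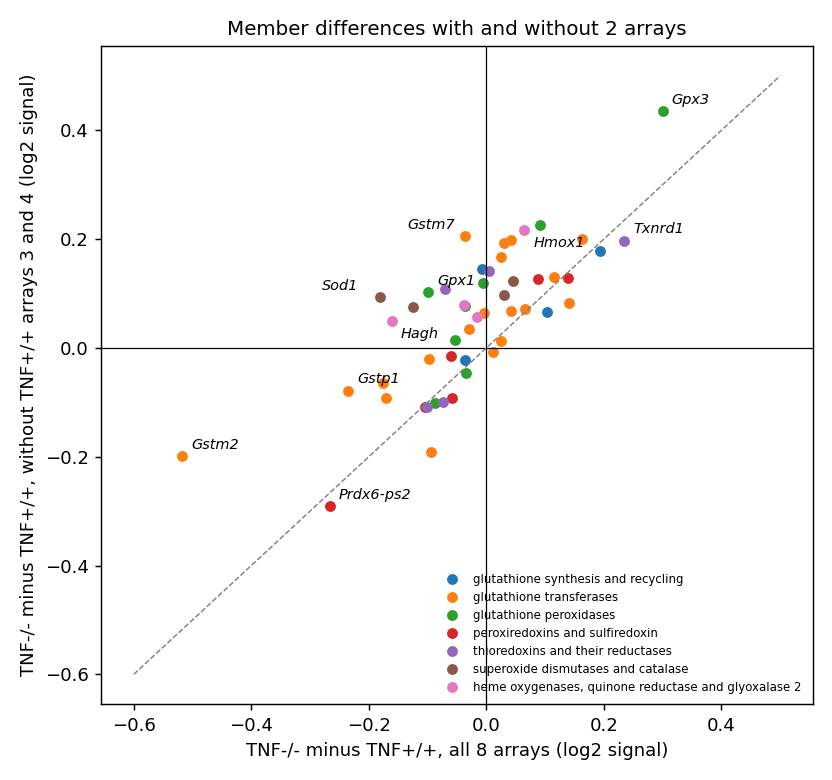
Difference of each of the 50 genes (points, coloured by function) with all 8 arrays (x axis) and without TNF+/+ arrays 3 and 4 (y axis), both in log2 units; the dashed line marks equal values. Most points lie above the dashed line, and Sod1, Gpx1 and Hagh pass from below 0 to above 0.

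Partner genes of the same chemistry, in 7 lists, were read from the same fit. Of 94 measured genes, limma called 1 higher (Glo1) and 1 lower (Nnt), against 0.0351% of all genes called higher and 0.015% lower. The lists were chosen with earlier results of these data known, so finding these 2 there is not independent evidence. Unadjusted, 13 (13.8%) had a limma p under 0.05, against 11.7% of all genes, 7 higher and 6 lower. The 94 had a median of 0.02. Both calls were close to the threshold: with 1 array left out, Glo1 passed in 2 of 8 fits (without TNF+/+ array 1 or 4; limma, adjusted p from 0.0326 to 0.0966) and Nnt in 2 of 8 (without TNF+/+ array 2 or 4; 0.0355 to 0.0884). Every other omission of 1 array ended the call, as did leaving out TNF+/+ arrays 3 and 4 together (adjusted p = 0.078 for Glo1 and 0.0857 for Nnt), while with 1 array left out the differences stayed between 0.96 and 1.15 for Glo1 and between -0.78 and -0.68 for Nnt.

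NADPH supply, on which both glutathione and thioredoxin recycling depend, held the gene that fell. Nnt, the mitochondrial transhydrogenase that makes NADPH from NADH, was at 7.46, 7.45, 7.44 and 7.32 in the arrays labelled TNF-/- and at 8.18, 8.32, 8.10 and 8.02 in the others, a difference of -0.74 ± 0.07 (SE; limma, adjusted p = 0.0151). The mitochondrial members that draw on this pool, Txnrd2 (-0.07), Txn2 (-0.07) and Prdx3 (0.09), did not pass. Gsr (-0.01) did not pass either, and its signal is not specific to mitochondria. None of the other 12 NADPH genes passed, and their differences lay between -0.19 and 0.20. Of the 13 measured, 2 had an unadjusted limma p under 0.05 (15.4%, against 11.7% of all genes). The labels do not name the strain of the TNF-/- mice, so TNF genotype and strain background cannot be told apart for Nnt.

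Glutathione turnover and transport, with 19 genes measured, had 1 that passed, Glo1, and a median of -0.08, which was 0.00 without TNF+/+ arrays 3 and 4. In this list 4 genes (21.1%, against 11.7% of all genes) had an unadjusted limma p under 0.05, 1 higher and 3 lower. The groups did not overlap for 21.1% of the list, against 7.66% of all genes. Cbs, which starts the route from homocysteine to cysteine, was at 6.41, 6.31, 6.31 and 6.30 against 6.55, 6.65, 6.60 and 6.83, apart in every array, and differed by -0.33 ± 0.07 (SE; limma, adjusted p = 0.212). Like Tnf and Glo1, Cbs lies on chromosome 17, so TNF genotype and strain background cannot be told apart for it either. Of the 9 microsomal transferases and relatives 0 passed (1 at an unadjusted p under 0.05), with a median of 0.03. Glutaredoxins, thioredoxin relatives and methionine sulfoxide reductases gave 0 of 19 (2 at an unadjusted p under 0.05) and a median of 0.05; Msrb3, a methionine sulfoxide reductase, was at 4.87, 5.07, 5.24 and 5.01 against 4.66, 4.86, 4.69 and 4.54 (0.36 ± 0.10; limma, adjusted p = 0.278).

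Metal handling and the regulators of the response complete the set. NRF2 and its regulators gave 0 of 11 (1 at an unadjusted p under 0.05) with a median of -0.00; Nfe2l2 itself differed by -0.09 ± 0.05 (SE) and its inhibitor Keap1 by -0.00 ± 0.06. Heme, iron and copper genes gave 0 of 11 (2 at an unadjusted p under 0.05), 9 of them lower, with a median of -0.11; without TNF+/+ arrays 3 and 4, 7 were lower and the median was -0.04. Within that list the metallothionein Mt2 was at 10.63, 10.47, 10.87 and 11.12 against 11.10, 11.30, 11.60 and 11.83, a difference of -0.68 ± 0.19 (limma, adjusted p = 0.284), and ceruloplasmin (Cp) at 6.52, 6.71, 6.70 and 6.61 against 6.26, 6.44, 6.47 and 6.08, a difference of 0.32 ± 0.10 (adjusted p = 0.327). Genes of selenoprotein synthesis and other selenoproteins gave 0 of 12 (1 at an unadjusted p under 0.05) and a median of 0.06. SAM called 2 of the 94, the same number as limma, against 0.149% of all probe sets called by SAM.

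**Figure D5:**
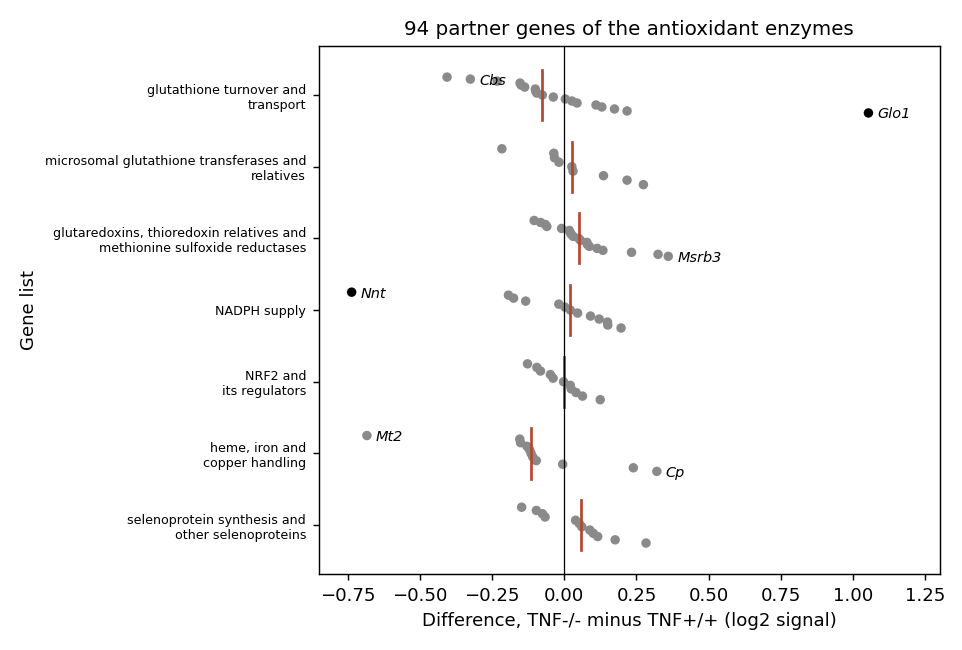
Difference in log2 signal, arrays labelled TNF-/- minus TNF+/+ (x axis), of 94 partner genes in 7 lists (y axis); black points passed limma at an adjusted p under 0.05, grey points did not, and red lines are list medians. Glo1 (1.05) and Nnt (-0.74) are the black points, and list medians run from -0.11 to 0.06.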

How the data were processed

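Brain RNA of 4 arrays labelled TNF-/- and 4 labelled TNF+/+ was measured, and the deposited log2 signals of 35556 probe sets were used as the authors gave them. GCOS, GCRMA and Partek are named, without versions or roles, per the submitters' processing notes; the log2 scale follows from the values, and no genome build was needed for the signals. Groups came from sample titles; 0 columns were unused. Of the probe sets, 21789 pair with 1 symbol in the platform annotation, 1621 with several and 12146 with none. Each gene was read from its brightest probe set; 4 of the 50 members have 2, and 6 further probe sets name a member among several symbols and were left out. All 50 matched RefSeq by gene ID, and 13 other RefSeq symbols that fit the rule, among them Prdx5, Prdx6, Gsta1 and Gsta2, were not analysed here. The labelled groups were tested over all probe sets with limma 3.58.1 under R 4.3.3 (two-sided, Benjamini-Hochberg, called at an adjusted p under 0.05); SE is limma's moderated error. SAM used all 70 assignments, which gave 53 calls at an estimated false discovery rate of 4.49%. Both were tested on simulated data. Plots used matplotlib 3.10.9 in Python 3.11.15. The members, lists and tests were chosen with earlier results of these data known. Described in full are members with an unadjusted p under 0.05 or no overlap, the brightest member of each subfamily, called partner genes and the 6 partner genes with the smallest p; Sod1, Gpx1, Cat, Prdx1 and others with values were named after these were seen. The labels say biological replicates; nothing says whether mice shared a litter.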

Additional observations from a re-analysis of the deposited data

Results flagged for a closer look

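Dixon's criterion at the 95% level set 1 array apart from its group in 12 of 150 groups of 4 values tested; chance gives about 8. Among antioxidant genes these were Gsto1 in TNF-/- array 2 (7.28, next 7.64), Txnrd3 in TNF-/- array 4 (5.05, next 4.69), Sod2 in TNF+/+ array 4 (10.51, next 10.26), Gstt1 in TNF+/+ array 2 (5.58, next 5.70) and Nqo1 in TNF+/+ array 1 (4.18, next 4.48). Among partner genes they were Nnt in TNF-/- array 4 (7.32) and Cbs in TNF-/- array 1 (6.41). List means set apart were those of NRF2 and its regulators in TNF-/- array 2 (7.30) and TNF+/+ array 4 (7.38), astrocytes in TNF-/- array 3 (9.77), mature oligodendrocytes in TNF-/- array 4 (9.23) and cerebellar granule cells in TNF+/+ array 1 (6.82).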

How the results depend on the processing

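No member was called by limma or SAM under any alternative run. Among all probe sets limma called 29, and 63 with only probe sets of 1 symbol, 0 with the replicate block, 0 without TNF+/+ arrays 3 and 4, and from 1 (without TNF+/+ array 3) to 20 (without TNF+/+ array 1) with 1 array left out, while SAM called 53. Members at an unadjusted p under 0.05 numbered 6, but 3 with dim probe sets left out, 1 (Gpx3) without TNF+/+ arrays 3 and 4, and 2 to 7 with 1 array left out. Of all genes, 11.7% had such a p in the main fit, 13.2% with dim probe sets left out and 7.76% to 12.9% with 1 array left out. Leaving out dim probe sets also leaves fewer members to count. Members whose groups do not overlap numbered 1, but 7 without TNF+/+ arrays 3 and 4 and 1 to 5 with 1 array left out. Fewer arrays make separation easier for any gene. The share of all genes without overlap is not given for these fits, so the rise in that count is not a result about the members. Called partner genes numbered 2, but 0 with the replicate block, 0 without TNF+/+ arrays 3 and 4 and 0 to 2 with 1 array left out. The members' median was 0.073 without TNF+/+ arrays 3 and 4, and -0.057 to 0.015 with 1 array left out. Without these arrays Gpx4 (0.078), Hagh (0.049), Sod1 (0.093), Gpx1 (0.10) and Cat (0.075) reversed, and the cause was not tested; Gsta4 did after quantile normalization (-0.0022) and Txn1 after centring on array medians (-0.015); with 1 array left out the ranges were -0.094 to 0.057 for Gpx4, -0.026 to 0.068 for Gsta4, -0.065 to 0.050 for Txn1 and -0.17 to 0.035 for Gpx1. Txnrd1 kept its direction, with adjusted p from 0.237 to 0.587 over arrays left out. Same-numbered arrays deviated together only weakly (r = 0.067 to 0.11, not all over 0.1), and the labels tie no numbers, so they were not taken as pairs, although 6 of 8 arrays correlated best with their own number, a hint from the data and not the design; with the block Glo1 (limma, adjusted p = 0.105), Nnt (0.129) and Tnf (0.129) did not pass. Without TNF+/+ arrays 3 and 4 these were 0.078, 0.0857 and 0.216.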
